A study of Mus musculus with 4 samples.

Results

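The genes described here remove retinoic acid or reduce its precursor, and were chosen by symbol: Cyp26a1, Cyp26b1, Cyp26c1, Dhrs3 and Lrat. All 5 were found among the 23420 genes of the count tables. RNA was sequenced from E14 cells, a wild-type mouse embryonic stem cell line that the labels describe as grown feeder-free on gelatin with leukemia inhibitory factor. All-trans retinoic acid (ATRA) was given at 1 µM to one group of 2 libraries, sampled after 24 h, and the other 2 libraries are a 0 h control. One label gives the dose in millimolar and the titles give micromolar, which is followed here. The vehicle in the protocol is dimethyl sulfoxide, and no label says whether the 0 h cells received it or whether leukemia inhibitory factor was kept during treatment. ATRA and 24 h of culture therefore cannot be told apart. No label says that the replicates were separate cultures, so p-values rest on library-to-library spread alone, part or all of which may be technical.

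Retinoic acid is made from retinol by way of retinal and acts through retinoic acid receptors paired with retinoid X receptors. The CYP26 enzymes, cytochromes P450 of the endoplasmic reticulum, hydroxylate retinoic acid and so start its removal. DHRS3 reduces retinal back to retinol, and LRAT joins retinol to a fatty acid for storage. Several of these genes are known to be induced by retinoic acid itself, which makes them feedback genes of the pathway.

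The ATRA libraries held 13337972 and 11086233 counts in genes, against 31005634 and 21484812 in the controls, so the treated cells were measured at the lower depth. Values below are CPM (counts-per-million) after scaling by TMM factors, and 3 counts stood for 0.0940 to 0.309 CPM. The stem cell markers were present in every library, with a summed level of 1301 to 1648 CPM with ATRA and 3617 to 3619 CPM in the controls over all 8 genes (3 fell, and 6 after GC correction). The 8 primitive or visceral endoderm markers summed to 52.8 to 79.9 CPM with ATRA and 25.5 to 25.9 CPM in the controls, and Ttr among them had 0 counts throughout. Of the 5 tested endoderm markers 0 were called by edgeR (4 at an unadjusted p under 0.05, and DESeq2 called 3), and 4 rose after GC correction. The 6 neural progenitor markers summed to 279 to 389 CPM with ATRA and 227 to 270 CPM in the controls, with 1 called higher and 3 after GC correction. Primitive streak, trophoblast and fibroblast markers summed to 18.9 to 26.4, 81.4 to 128 and 105 to 106 CPM with ATRA, against 165 to 192, 228 to 250 and 155 to 215 CPM in the controls. Of the 6 tested streak markers 3 fell, and 4 after GC correction. Of the 5 tested trophoblast markers 0 were called by edgeR (3 at an unadjusted p under 0.05, and DESeq2 called 1). After GC correction 2 of them rose and 1 fell. Of the 6 tested fibroblast markers 0 were called by edgeR (3 at an unadjusted p under 0.05, and DESeq2 called 3), and 1 rose after GC correction. The part of these shifts in the results below was not tested, and in bulk RNA a change in the number of cells of a type cannot be told apart from a change in RNA per cell. Transcript GC content also moved with the fold changes (Spearman rho −0.75 over genes, none of which is an independent replicate). Fold changes are therefore also given after a GC correction fitted per library.

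Of the 5 genes, Cyp26a1, Cyp26b1 and Dhrs3 rose with ATRA and 0 fell. Among all 14256 tested genes, 1.13% were called at an adjusted p under 0.05, with 103 genes, or 0.723%, higher and 58, or 0.407%, lower (edgeR's quasi-likelihood test, Benjamini-Hochberg adjusted, n = 2 against 2). That share higher rests on the scaling and on single libraries: 232 genes were higher and 371 lower with DESeq2 size factors, and 51, 105, 5011 and 3491 were higher without control replicate 1, control replicate 2, ATRA replicate 1 and ATRA replicate 2 in turn. Cyp26c1 and Lrat had too few counts to be tested. Cyp26b1 passed the filter on low counts through its ATRA libraries. In all 5 genes both ATRA libraries lay above both controls in CPM, a pattern that 40.0% of all tested genes shared. After GC correction the same 3 genes were called, beside 8.56% of all tested genes called higher and 7.70% called lower.

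**Figure D1:**
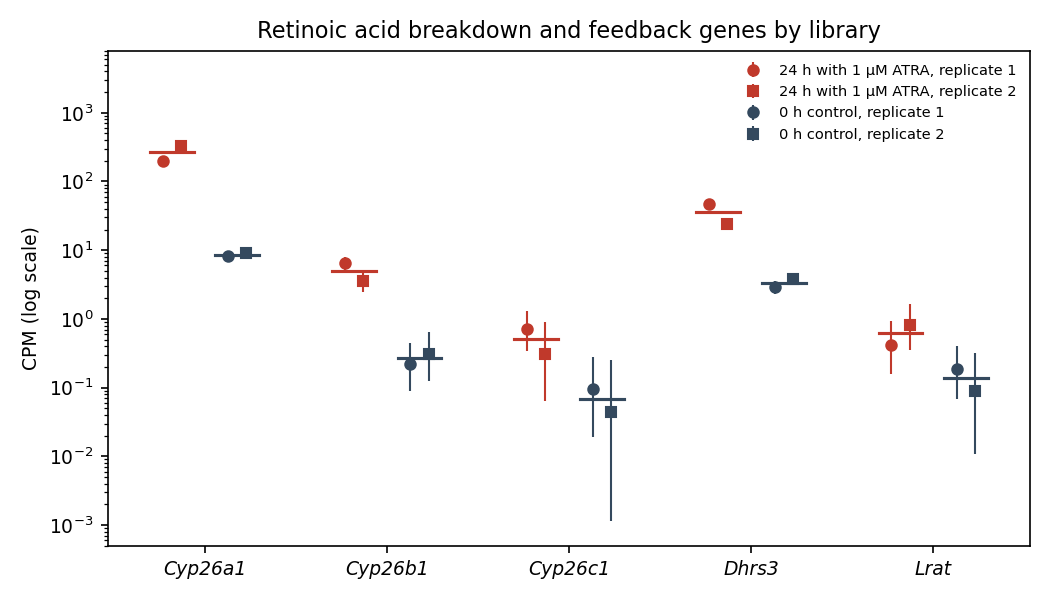
CPM of the 5 genes in each library, on a log axis, with 24 h ATRA to the left of the 0 h control for each gene. Points are libraries, vertical bars are exact 95% counting intervals and horizontal lines are group means. Cyp26a1 stands highest in both groups, at 201 and 331 CPM with ATRA and 8.21 and 9.08 CPM in the controls, and the longest bar is that of Cyp26c1 in control replicate 2, with 1 count.

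Cyp26a1 encodes the main retinoic acid hydroxylase of the early embryo. It lies on chromosome 19 from 37697798 to 37701536, plus strand (GENCODE M21, GRCm38). It had 2851 and 3214 counts with ATRA, or 201 and 331 CPM, against 262 and 204 counts, or 8.21 and 9.08 CPM, in the controls. The groups were far apart, with ATRA replicate 2 the higher of the treated libraries although it was the shallower. The mean was 266 ± 91.9 CPM with ATRA and 8.64 ± 0.619 CPM in the controls (SD, n = 2 each). The log2 fold change was 4.94 ± 0.39 (SE), or 30.8-fold, with an edgeR adjusted p of 0.0179. By size it was rise number 22 among the 14256 tested genes. Per kilobase of transcript, which allows levels to be set beside those of other genes, Cyp26a1 averaged 149 CPM per kb with ATRA and 4.83 CPM per kb in the controls. At those levels 1.68% of 23052 genes with a known length lay above it with ATRA, and 36.7% in the controls. Among the CYP26 genes it alone was above 1 CPM before treatment.

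The promoter window of Cyp26a1 is shown because it holds a retinoic acid receptor motif that the other members' windows lack. RefSeq windows run from 250 bases before to 50 bases after the start site (GRCm38.p6) and were found for all 5 genes, with 3 start sites for Dhrs3. The core letters searched were AGGTCA or AGTTCA or GGGTCA or GGTTCA on both strands. A DR5 element is a direct repeat of such cores in the same direction with 5 bases (NNNNN) between them, and it is the textbook arrangement bound by retinoic acid receptors. Capitals mark the cores in the window of Cyp26a1, and the windows of Cyp26b1 and of the first Dhrs3 start site, the other genes that rose, hold none. The sequences are at chr19:37697558-37697857 (plus strand), chr6:84593761-84594060 (minus strand) and chr4:144892577-144892876 (plus strand).
Cyp26a1: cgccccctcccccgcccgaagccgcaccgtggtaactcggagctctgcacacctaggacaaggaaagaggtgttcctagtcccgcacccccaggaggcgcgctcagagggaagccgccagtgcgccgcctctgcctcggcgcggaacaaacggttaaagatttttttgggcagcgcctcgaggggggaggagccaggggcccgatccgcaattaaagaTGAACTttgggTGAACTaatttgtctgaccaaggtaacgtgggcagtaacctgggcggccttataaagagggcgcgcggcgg
Cyp26b1: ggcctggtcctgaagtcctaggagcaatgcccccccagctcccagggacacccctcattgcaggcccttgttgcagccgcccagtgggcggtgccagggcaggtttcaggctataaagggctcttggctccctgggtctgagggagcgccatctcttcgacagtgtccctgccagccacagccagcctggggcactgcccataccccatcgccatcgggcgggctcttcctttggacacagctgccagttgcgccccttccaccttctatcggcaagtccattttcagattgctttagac
Dhrs3: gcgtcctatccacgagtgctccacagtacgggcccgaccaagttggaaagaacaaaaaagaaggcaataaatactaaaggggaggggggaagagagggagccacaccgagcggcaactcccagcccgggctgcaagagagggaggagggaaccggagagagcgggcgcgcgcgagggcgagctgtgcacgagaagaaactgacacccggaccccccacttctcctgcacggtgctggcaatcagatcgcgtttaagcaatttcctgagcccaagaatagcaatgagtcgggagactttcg

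The Cyp26a1 repeat lies from −32 to −16 relative to the start site and reads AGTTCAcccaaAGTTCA on the strand opposite the gene, so its cores appear as TGAACT above. At least 1 core motif occurred in 43.7% of 32851 windows, while a DR5 occurred in 32 of them, or 0.0974%. The windows of Cyp26b1, Cyp26c1, Dhrs3 and Lrat held 0 cores in these 300 bases, which says nothing of sites farther away. Among tested genes, 6 had a DR5 in the window, and they were listed after their values were seen. Of these, Rarb, Cyp26a1 and the chemokine gene Ppbp rose. Of all 10391 tested genes with a window, 69, or 0.664%, were called higher. A list of 6 genes drawn up with their values known cannot test a link to the motif, and none was tested. To compare them with the Cyp26a1 element, the repeats of the other 2 genes that rose are printed with the cores in capitals.
Rarb: GGTTCAccgaaAGTTCA
Ppbp: AGGTCAgacctAGGTCA

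Rarb, the receptor beta gene whose element is a classic of the field, had 33.9 and 43.4 CPM with ATRA and 0.125 and 0.223 CPM in the controls, a log2 fold change of 7.80. Ppbp had 7.49 and 14.1 CPM with ATRA and 0.219 and 0.0445 CPM in the controls (6.15). Rarb had 4 and 5 counts in the controls, and Ppbp had 1 count in control replicate 2. Both genes passed the filter on low counts through their ATRA libraries, and their fold changes are loosely known. Prokr2, Syndig1 and Blvrb also held a DR5 and did not pass the test, with log2 fold changes of 1.46, 0.59 and −2.42 and edgeR adjusted p of 0.0847, 0.367 and 0.0804. A match of letters is a description of the window and not evidence of binding.

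Cyp26b1 encodes a related hydroxylase, known for clearing retinoic acid from the embryonic hindbrain, limb and testis. Its span is 84571414 to 84593908 on the minus strand of chromosome 6. It had 91 and 34 counts with ATRA, or 6.43 and 3.50 CPM, against 7 and 7 counts, or 0.219 and 0.312 CPM, in the controls. Here ATRA replicate 1 was the higher treated library, and the lowest ratio of a treated to a control library was 11.2. The mean was 4.97 ± 2.07 CPM with ATRA and 0.265 ± 0.0653 CPM in the controls (SD, n = 2 each). The log2 fold change was 4.24 ± 0.55 (SE), or 19.0-fold, with an edgeR adjusted p of 0.0399. The control level rests on 14 counts in all, and the pooled ratio was 20.4 with an exact 95% interval from 11.7 to 38.3, which covers counting error only.

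Dhrs3, on chromosome 4 from 144892827 to 144928209, plus strand, encodes the retinal reductase that lowers the supply of retinoic acid. It had 670 and 232 counts with ATRA, or 47.3 and 23.9 CPM, against 92 and 86 counts, or 2.88 and 3.83 CPM, in the controls. The groups did not overlap, and ATRA replicate 1 was again the higher treated library. The mean was 35.6 ± 16.6 CPM with ATRA and 3.36 ± 0.669 CPM in the controls (SD, n = 2 each). The log2 fold change was 3.42 ± 0.47 (SE), or 10.7-fold, with an edgeR adjusted p of 0.0430.

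Calls for Cyp26b1 and Dhrs3 were close to the threshold. Without control replicate 1 their log2 fold changes were 3.97 and 3.21, each with an edgeR adjusted p of 0.0667, and 125 genes were called over the whole table. The legacy form of edgeR's test is the default of the version used, but the main fit did not use it and it was added after seeing the data. With this legacy form Cyp26b1 and Dhrs3 were at 4.23 and 3.41 with adjusted p of 0.0514 and 0.0560. Cyp26a1 stayed past the threshold at 0.0266. After GC correction the log2 fold changes were 5.83 ± 0.54 for Cyp26a1, 5.53 ± 0.39 for Cyp26b1 and 3.79 ± 0.29 for Dhrs3 (SE, edgeR adjusted p of 0.00966, 0.00547 and 0.00555). Corrected and without control replicate 1, their edgeR adjusted p were 0.0692, 0.0593 and 0.0593, and without control replicate 2 they were 0.0763, 0.0574 and 0.0554. In those corrected fits 35 and 29 genes were called in all. The direction was upward in every fit run for the 3 genes.

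**Figure D2:**
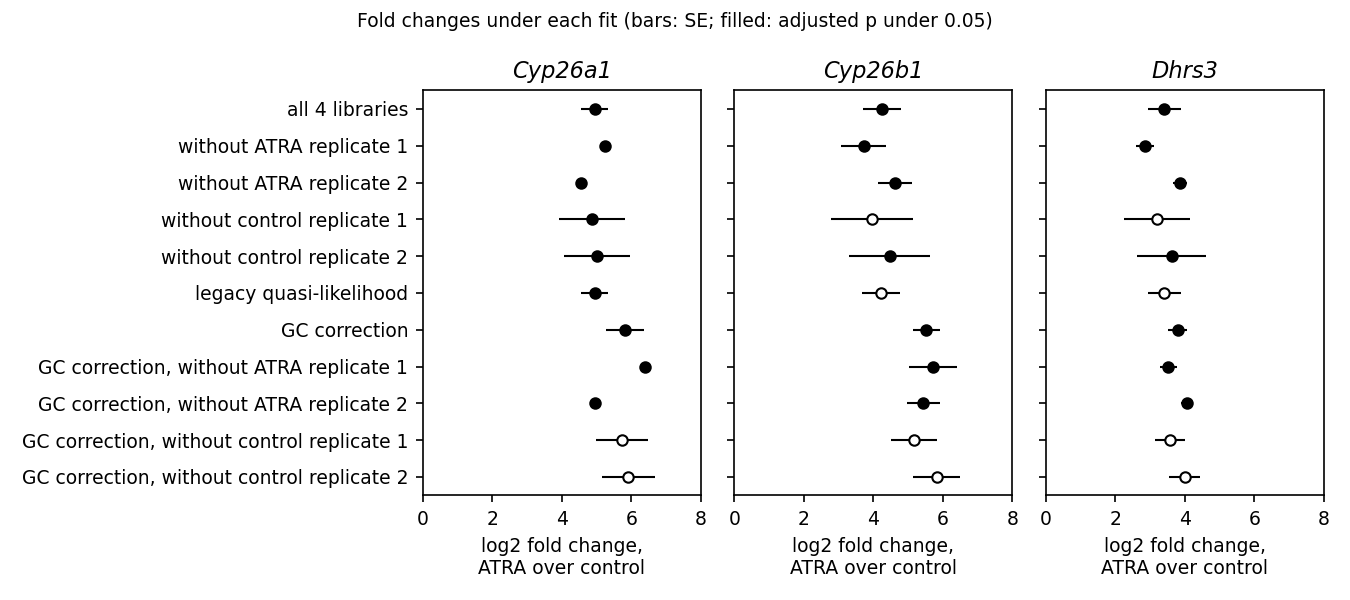
Log2 fold change of ATRA over control for the 3 tested genes under each fit, with SE bars; filled points have an adjusted p under 0.05. All points lie above 2.8, and the open ones for Cyp26b1 and Dhrs3 without control replicate 1 stand at 3.97 and 3.21.

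Cyp26c1, the third hydroxylase gene, lies on chromosome 19 from 37685581 to 37693398, plus strand, 4399 bases from Cyp26a1. It had 10 and 3 counts with ATRA, or 0.706 and 0.309 CPM, against 3 and 1 counts, or 0.0940 and 0.0445 CPM, in the controls. The libraries did not overlap in CPM, but counts this low carry wide intervals. The pooled ratio of ATRA to control was 7.41 with an exact 95% interval from 2.29 to 31.2 (counting error only). Fitted with no filter on low counts, it stood at 2.72 on the log2 scale (edgeR adjusted p = 0.0892).

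Lrat, the retinol-esterifying enzyme gene, lies on chromosome 3 from 82892579 to 82903973, minus strand. It had 6 and 8 counts with ATRA, or 0.424 and 0.825 CPM, against 6 and 2 counts, or 0.188 and 0.0890 CPM, in the controls. The CPM values did not overlap although the raw counts did. The pooled ratio was 3.99 with an exact 95% interval from 1.56 to 10.98 (counting error only). Fitted with no filter it stood at 1.93 on the log2 scale (edgeR adjusted p = 0.128). The antisense gene Rbm46os spans it on the other strand, with 0 bases of exon in common.

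Set side by side per kilobase, the order of levels was the same in both groups: Cyp26a1, Dhrs3, Cyp26b1, Cyp26c1 and Lrat. With ATRA they averaged 149 ± 51.3, 15.2 ± 7.08, 1.105 ± 0.460, 0.291 ± 0.161 and 0.117 ± 0.0530 CPM per kb (SD, n = 2). In the controls the averages were 4.83 ± 0.345, 1.44 ± 0.286, 0.0591 ± 0.0145, 0.0396 ± 0.0200 and 0.0259 ± 0.0131 CPM per kb (SD, n = 2). Cyp26a1 stood clear of Dhrs3, and Dhrs3 of Cyp26b1, in every library of each group. In the controls the libraries of Cyp26b1, Cyp26c1 and Lrat overlapped from neighbour to neighbour, so that end of the order is not resolved. With ATRA those 3 did not overlap, although Cyp26c1 and Lrat rest on 3 to 10 counts per library.

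Cyp26a1 supplied nearly all CYP26 transcript in these cells, treated or not. Its share of the summed CYP26 counts per kilobase was 98.4% and 99.5% with ATRA, and 97.8% and 98.2% in the controls. That of Cyp26b1 was 1.25% and 0.419% with ATRA, and 1.04% and 1.34% in the controls. The shares of Cyp26b1 overlapped between the groups. Of raw counts, with no length scaling, Cyp26a1 had 96.6% (exact 95% interval 95.9% to 97.2%) and 98.9% (98.4% to 99.2%) with ATRA, and 96.3% (93.3% to 98.2%) and 96.2% (92.7% to 98.4%) in the controls. These intervals cover counting error only.

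The 3 genes that rose did not vary together between the treated replicates. The log2 difference of ATRA replicate 2 from replicate 1 was 0.72 for Cyp26a1, −0.86 for Cyp26b1 and −0.98 for Dhrs3 (prior count of 2). Genes within 1 percentage point of their transcript GC content had medians of −0.71 (1532 genes near the 53.8% of Cyp26a1), −1.17 (1279 genes near the 56.7% of Cyp26b1) and −0.44 (1497 genes near the 52.4% of Dhrs3). Cyp26a1 was above 97.2% of its like-GC genes, and Cyp26b1 and Dhrs3 were above 66.9% and 21.5% of theirs. Between the control replicates the same differences were 0.14, 0.36 and 0.40. GC correction brought the treated replicates of Cyp26b1 to 6.97 and 8.45 CPM and those of Dhrs3 to 47.1 and 32.3 CPM. It set those of Cyp26a1 further apart, at 205 and 550 CPM. Leaving out ATRA replicate 1 gave Cyp26a1 a GC-corrected log2 fold change of 6.39, and leaving out replicate 2 gave 4.96.

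**Figure D3:**
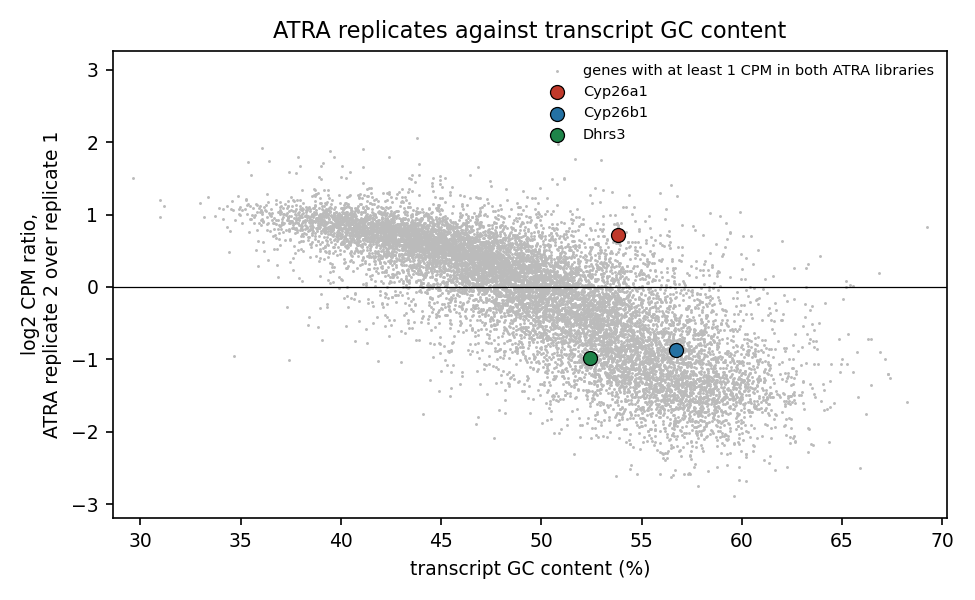
Log2 CPM ratio of ATRA replicate 2 over replicate 1 against transcript GC content (%) for genes with at least 1 CPM in both libraries (grey), with the 3 tested genes marked. The grey cloud slopes down with GC content; Cyp26b1 and Dhrs3 lie within it and Cyp26a1, at 53.8% GC, lies above the middle of its like-GC genes.

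Ratios between genes within a library do not depend on its depth. Per kilobase, the ratio of Cyp26a1 to Dhrs3 was 5.55 and 18.1 with ATRA and 3.72 and 3.10 in the controls. That of Cyp26a1 to Cyp26b1 was 78.6 and 237 with ATRA and 93.9 and 73.1 in the controls, which overlap. That of Dhrs3 to Cyp26b1 was 14.2 and 13.1 with ATRA and 25.3 and 23.6 in the controls. So the Cyp26a1 to Dhrs3 ratio was higher in both treated libraries, the Dhrs3 to Cyp26b1 ratio was lower, and no direction held for the hydroxylase pair. The control ratios to Cyp26b1 rest on 7 of its counts per library. Exact 95% counting intervals of Cyp26b1 there ran from 0.088 to 0.452 and from 0.125 to 0.642 CPM, so these ratios are loosely known. After GC correction the Dhrs3 to Cyp26b1 ratio was 13.0 and 7.36 with ATRA and 36.8 and 31.3 in the controls. The Cyp26a1 to Dhrs3 ratio was then 5.67 and 22.2 with ATRA and 3.29 and 2.80 in the controls. These ratios are given as values: an exact permutation test over 2 against 2 libraries cannot give a two-sided p below 0.333, and no other test was run on them.

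**Figure D4:**
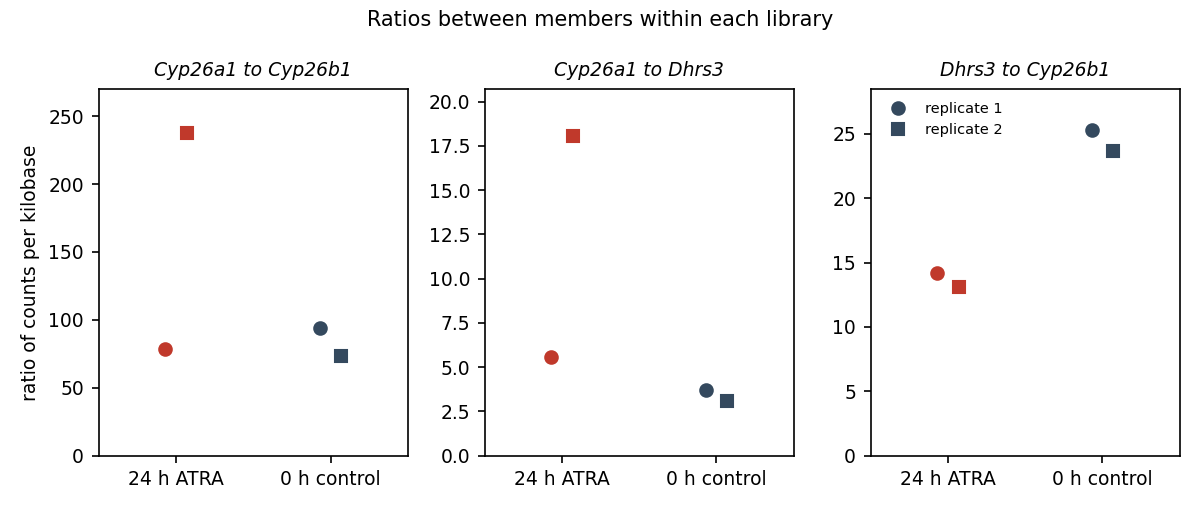
Ratios of counts per kilobase between the 3 tested genes in each library, with 24 h ATRA on the left and the 0 h control on the right of each panel. The Dhrs3 to Cyp26b1 ratio is lower in both ATRA libraries, at 14.2 and 13.1, than in the controls, at 25.3 and 23.6, while ATRA replicate 2 stands apart in both panels with Cyp26a1. Control ratios to Cyp26b1 rest on 7 of its counts per library.

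By position, the CYP26 genes sit beside a pair of related genes of the exocyst, the complex that tethers secretory vesicles. Exoc6 ends 1521 bases before Cyp26c1, and Exoc6b lies 24578 bases from Cyp26b1. Exoc6 had 46.0 and 70.0 CPM with ATRA and 23.0 and 19.8 CPM in the controls. On the log2 scale that was 1.44 (edgeR adjusted p = 0.0664), and 0.66 after GC correction (edgeR adjusted p = 0.0396). Exoc6b had 68.0 and 105 CPM with ATRA and 93.4 and 91.7 CPM in the controls, and was at −0.10 (edgeR adjusted p = 0.807) and −0.35 after GC correction (edgeR adjusted p = 0.189). Counting the nearest 2 protein-coding genes on each side, 16 genes other than the members neighboured the 5, and 11 were tested. Of these, 0 were called by edgeR, where 1.13% of all tested genes were, so 0 of 11 says little. An unadjusted p under 0.05 was found for 5 and DESeq2 called 4, against 41.7% and 30.5% of all tested genes. After GC correction Exoc6 alone was called, beside 16.3% of all tested genes. The log2 fold changes of the 11 ran from −1.88 (Spr) to 1.44 (Exoc6), so all were smaller in size than those of the 3 members that rose. Cyp26c1, the nearest gene to Cyp26a1, is itself a member and is not among the 11.

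The genes whose profiles over the 4 libraries were most like each member were found by the Euclidean distance of centred log2 CPM, among 13693 candidates with at least 1 CPM in a group. Among those nearest to Cyp26a1 were the homeobox genes Meis2 (distance 0.14) and Hoxb7 (0.27). Meis2 had 113 and 163 CPM with ATRA and 4.42 and 4.81 CPM in the controls, and Hoxb7 had 8.97 and 11.8 CPM with ATRA and 0.251 and 0.312 CPM in the controls. That they were higher in ATRA replicate 2, like Cyp26a1, follows from how they were picked. Their GC content, at 47.3% and 51.2%, is lower than that of Cyp26a1. Nearest to Cyp26b1 were Crabp2, which encodes a carrier of retinoic acid to its receptors (0.28), BC048679 (0.40) and Dhrs3 (0.44). Nearest to Dhrs3 were Crabp2 (0.22), the glycine receptor gene Glra2 (0.33) and Cyp26b1 (0.44). Cyp26b1 and Dhrs3 were thus among each other's nearest genes, while 41 and 73 genes were nearer to Cyp26a1 than Cyp26b1 and Dhrs3 were. These profiles were not GC-corrected. After correction Cyp26b1 had 6.97 and 8.45 CPM and Dhrs3 47.1 and 32.3 CPM in ATRA replicates 1 and 2, in opposite directions. With 4 libraries this is a description only.

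The other genes of retinoid handling were counted from 6 lists with 83 genes, 77 of them in the tables and 41 tested. Of these, edgeR called 4 higher and 0 lower, beside 0.723% and 0.407% of all tested genes. With 1.13% of all tested genes called, 0 calls in a short list say little about that list. An unadjusted p under 0.05 was found for 21 of the 41, against 41.7% of all tested genes, and DESeq2 called 8 higher and 11 lower, against 30.5% of all tested genes called in either direction. The median log2 fold change of the 41 was −0.41, against −0.02 over all genes tested. With either ATRA library left out, calls rose in these lists and over the whole table alike, so they say little of the lists. After GC correction 7 rose and 2 fell, beside 8.56% and 7.70% of all tested genes. The corrected median was 0.12 against 0.01 over all genes. With a library left out, these corrected calls moved in the same direction as those over the whole table. Among 13 tested genes that interconvert retinol and retinal or oxidise retinal, 0 were called by edgeR (2 at an unadjusted p under 0.05, and DESeq2 called 2). The list takes in reductases of retinal, and the direction in which each enzyme works in these cells was not tested. After GC correction Rdh1 (1.77) and Rdh14 (1.33, edgeR adjusted p = 0.04996) rose and Rdh11 (−0.64) and Adh5 (−0.84) fell. Adh5, the most abundant of them, had 293 and 250 CPM with ATRA and 399 and 436 CPM in the controls.

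Among 9 tested binding and transport genes, edgeR called Crabp2 and Stra6 higher, while 5 had an unadjusted p under 0.05 and DESeq2 called 3 higher and 2 lower. Crabp2 had 186 and 107 CPM with ATRA and 11.4 and 14.2 CPM in the controls, a log2 fold change of 3.52 ± 0.39 (SE, edgeR adjusted p = 0.0343). Stra6, the cell-surface retinol transporter gene, had 30.7 and 10.8 CPM with ATRA and 0.720 and 0.579 CPM in the controls, a log2 fold change of 4.98 ± 0.66 (SE, edgeR adjusted p = 0.0399, and 0.0525 in the legacy form). Crabp2 was at an edgeR adjusted p of 0.0566 in the corrected fit without control replicate 1 and of 0.0521 without control replicate 2. Before GC correction both genes were higher in ATRA replicate 1, as Cyp26b1 and Dhrs3 were. With the correction Cyp26b1 was higher in ATRA replicate 2, at 8.45 CPM against 6.97 CPM. After GC correction Lrp2, an endocytic receptor gene and the most abundant of the list, rose as well (0.85; uncorrected it was at 0.96, edgeR adjusted p = 0.0718).

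Beside Lrat, 7 tested genes that esterify retinol or hydrolyse its esters gave 0 calls by edgeR, also after GC correction, while 4 had an unadjusted p under 0.05 and DESeq2 called 3. The most abundant, the lipoprotein lipase gene Lpl, was at 1.23 (edgeR adjusted p = 0.0752) and at 0.45 after GC correction. Of the 6 receptor genes edgeR called Rarb alone, also after GC correction, while 5 had an unadjusted p under 0.05 and DESeq2 called 1 higher and 4 lower. Rarg, the most abundant of them, was at −1.72 (edgeR adjusted p = 0.0636) and at −0.05 after GC correction. The 3 tested genes listed as electron donors of P450 enzymes, not all of them required ones, gave 0 calls by edgeR in either fit. Of these, 2 had an unadjusted p under 0.05 and DESeq2 called 2 lower. The most abundant, Cyb5b, had 336 and 377 CPM with ATRA and 262 and 261 CPM in the controls (log2 fold change 0.45).

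The last list held P450 genes outside the CYP26 family, not all of them known to act on retinoids. Of its 3 tested genes edgeR called Cyp1b1 higher. All 3 had an unadjusted p under 0.05, and DESeq2 called 1 higher and 1 lower. Cyp1b1 had 66.7 and 121 CPM with ATRA and 8.58 and 6.99 CPM in the controls. Its log2 fold change was 3.58 ± 0.41 (SE, edgeR adjusted p = 0.0343), and 3.06 after GC correction. Corrected and without control replicate 2 its edgeR adjusted p was 0.0574. Like Cyp26a1 it was higher in ATRA replicate 2. Cyp51, the most abundant of the list and a sterol synthesis gene, had 104 and 158 CPM with ATRA and 77.8 and 77.2 CPM in the controls and did not pass (log2 fold change 0.75, edgeR adjusted p = 0.118).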

How the data were processed

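RNA was measured by sequencing in 4 libraries. For each one the authors deposited raw read counts by gene symbol, as whole numbers. HTSeq 0.6.0, TopHat2 2.0.7, Cuffdiff 2.0.2, Cufflinks 2.0.2 and build mm10 appear in the submitters' processing notes, which give no roles. Which annotation and strand setting were used is not given in the sources used here. Summary lines (reads in no gene, 63.4% to 66.2% of counted reads, and ambiguous reads, at most 0.254%) were left out.

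Counts were tested with edgeR 4.0.16 in R 4.3.3: default expression filter by group, TMM factors, robust quasi-likelihood fit with bias-adjusted deviances, ATRA against control, Benjamini-Hochberg adjustment over all 14256 genes tested and a threshold of 0.05. Bias-adjusted deviances were chosen in place of the legacy form, which is the default of this edgeR version. SE is |log2 fold change| over √F. Alternatives were DESeq2 1.42.0, other filters, libraries left out, a replicate block and a GC correction (MASS 7.3.60.0.1): a natural spline of 5 degrees of freedom of each library's log2 CPM deviations on transcript GC content, entered as offsets. It removes any GC-related difference, technical or not. Scripts were tested on simulated counts. Positions, lengths and GC content come from GENCODE M21 (21777 symbols matched directly, 1275 through an older symbol, 368 unmatched) and promoter windows from RefSeq. Library depth limits low genes: 1 count stood for 0.0313 to 0.103 CPM.

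The members and lists were chosen with earlier results of these data known. Named were all members, other retinoid genes called in either fit (at most 4 per list) with each list's most abundant gene, the 3 nearest profiles and the chromosomal neighbours; 1 gene that this rule names is not reported here. The DR5 genes were added after their values were seen.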

Additional observations from a re-analysis of the deposited data

How the results depend on the processing

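Under every alternative run, the 3 tested genes kept an upward direction, and so did the CPM ratios of Cyp26c1 and Lrat. The count of genes called over the whole table moved far more. It was 161 as reported, 603 with DESeq2 size factors (38.5% of them higher, against 64.0%), 4350 by DESeq2, 2317 with GC correction, 86 with the legacy test and 2383 with both. With a library left out it ran from 125 to 10289, and corrected it was 35, 29, 6663 and 5032 without control replicates 1 and 2 and ATRA replicates 1 and 2. The members called, 3 as reported, were 1 with the legacy test, 1 to 3 with a library left out and 0 to 3 corrected. The other retinoid genes called, 4 as reported, were 19 by DESeq2, 9 with GC correction in either form of the test, 4 to 30 with a library left out and 2 to 21 (18 without ATRA replicate 2) corrected. With a library left out, the log2 fold change of Cyp26a1 ran from 4.56 to 5.25 (4.96 to 6.39 corrected). That of Cyp26b1 ran from 3.72 to 4.63 (5.18 to 5.82 corrected) and that of Dhrs3 from 2.85 to 3.86 (3.52 to 4.07 corrected). Corrected and without control replicates 1 and 2 in turn, Cyp26a1 was at 5.72 and 5.91. Cyp26b1 was then at 5.18 and 5.82, and Dhrs3 at 3.58 and 3.99. In those corrected fits none of the 3 genes was past the threshold. With the legacy test Cyp26b1 was at 4.23 and Dhrs3 at 3.41, past the threshold no longer. The log2 CPM ratios ran from 2.16 to 3.51 for Cyp26c1 and from 1.61 to 2.81 for Lrat. With no length scaling the mean share of Cyp26a1 in CYP26 counts was 97.7% with ATRA and 96.3% in the controls, and that of Cyp26b1 2.06% and 2.94%. The replicate numbers pair nothing by the labels, and same-numbered libraries had a correlation of deviations of 0.18 (−0.03 corrected). With a replicate block 4401 genes, 3 members and 20 other retinoid genes (7 higher and 13 lower) were called, and 2635, 3 and 10 with GC correction. The causes were not tested. With a lone library, its group was assumed to vary like the other. Depth limits Cyp26c1 and Lrat, which had 1 to 10 counts per library.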
